A study of Rattus norvegicus with 15 samples.

Results

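The miR-200 family comprises 5 miRNAs, miR-200b, miR-200a, miR-429, miR-200c and miR-141, and it was followed in rat liver across long ethanol feeding and regeneration after partial hepatectomy (PHx, surgical removal of part of the liver). The members were taken by name from the array design, 5 of the 350 rat miRNAs on the array, and 3 of the 5 (miR-200b, miR-200a and miR-429) met the detection filter that 134 of the 350 met. The tissue was whole liver of Rattus norvegicus. The EtOH group had been fed ethanol chronically, and the CHO group was pair-fed a carbohydrate control diet. Liver was taken from each diet group before PHx and at 1, 6, 12 and 24 h after it. There were 3 EtOH and 4 CHO arrays before PHx, and 1 EtOH and 1 CHO array at each of the 4 later times, which makes 15 arrays. The RNA on each array came from a pool of 4 animals, and the labels give no strain, sex or age. By the animal identifiers, 7 of the 8 pools were measured before and after PHx, and the 1 h and 6 h pools share 1 animal in EtOH and 1 in CHO. An EtOH array before PHx from the 24 h pool was not analysed here.

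The miR-200 family marks epithelial cells. Its members pair with the 3′ untranslated regions of Zeb1 and Zeb2, transcription factors that repress E-cadherin, and Zeb proteins in turn repress the miR-200 genes, so that miRNAs and factors hold each other in check in epithelial-mesenchymal transition. In liver the family is known chiefly from bile duct epithelium, while hepatocytes, which make up most of the tissue mass, carry little of it. In whole liver, fewer cells of a type and less of the miRNA per cell cannot be told apart.

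The family lies in a pair of genomic clusters, each read from 1 strand. In the RefSeq annotation of GRCr8, the miR-200b, miR-200a and miR-429 hairpins lie on the minus strand of chromosome 5 between 171929682 and 171931589, a span of 1908 bases. The miR-200c and miR-141 hairpins lie on the minus strand of chromosome 4 between 159209525 and 159210033, a span of 509 bases. The seed, bases 2 to 8 of the mature strand, is the stretch that pairs with target transcripts, and it divides the family across the clusters: miR-200b, miR-200c and miR-429 share one seed, and miR-200a and miR-141 share the other. The mature strands of the chromosome 4 members are shown because they display the difference between the seed groups, with the seed in capitals (RefSeq, GRCr8). They lie at chr4:159209969-159209989 and chr4:159209540-159209561 on the minus strand.

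rno-miR-200c-3p: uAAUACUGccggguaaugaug

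rno-miR-141-3p: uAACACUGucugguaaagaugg

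Over the 21 bases compared from the 5′ end, the strands differed at 4, and 1 of these is in the seed, U4C, given as the miR-200c base, its position from the 5′ end and the miR-141 base.

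The arrays differed in overall brightness. The 75th percentile of probe signal was 288, 410 and 236 in EtOH before PHx and 397 to 516 in CHO before PHx, and signals were therefore scaled to a common 75th percentile. Spots of 1 probe varied by a median of 36.6% on the third EtOH array before PHx, against 6.75% to 8.62% on the other arrays. The arrays were on 2 slides, with the 1 h and 6 h pools on slide 1 and the 12 h and 24 h pools on slide 2. Where 1 and 6 h are set directly against 12 and 24 h, time and slide cannot be told apart. Each slide held arrays of both diets, before and after PHx. Hepatocyte miRNAs (miR-122, miR-192, miR-194 and miR-148b-3p) summed to 35996 to 41996 scaled units in EtOH before PHx and to 36185 to 42919 in CHO before PHx, and all 4 were detected.

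In the chromosome 5 cluster miR-200b and miR-200a gave signal and miR-429 was mostly below the floor, and the chromosome 4 cluster gave little or none. Each member had 2 probes, and the brighter one stood for it. The probe of miR-200b was well above background on 15 of 15 arrays, with scaled signals of 20.7 to 42.1, and so was that of miR-200a, at 17.6 to 29.5. The probe of miR-429 was well above background on 6 of 15 arrays, at 6.25 to 12.0, and below the floor of 9.61 on 12. The probe of miR-200c was well above background on 0 of 15 arrays, at 3.77 to 8.03. It nevertheless exceeded the median of the negative-control spots on 15 of 15 arrays, by 2.91 to 7.23 scaled units. The probe of miR-141 was well above background on 0 of 15 and above the negative controls on 0 of 15, at -1.38 to 0.24. Probes of different miRNAs differ in their response, so these signals rank each miRNA's arrays and not the miRNAs.

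**Figure D1:**
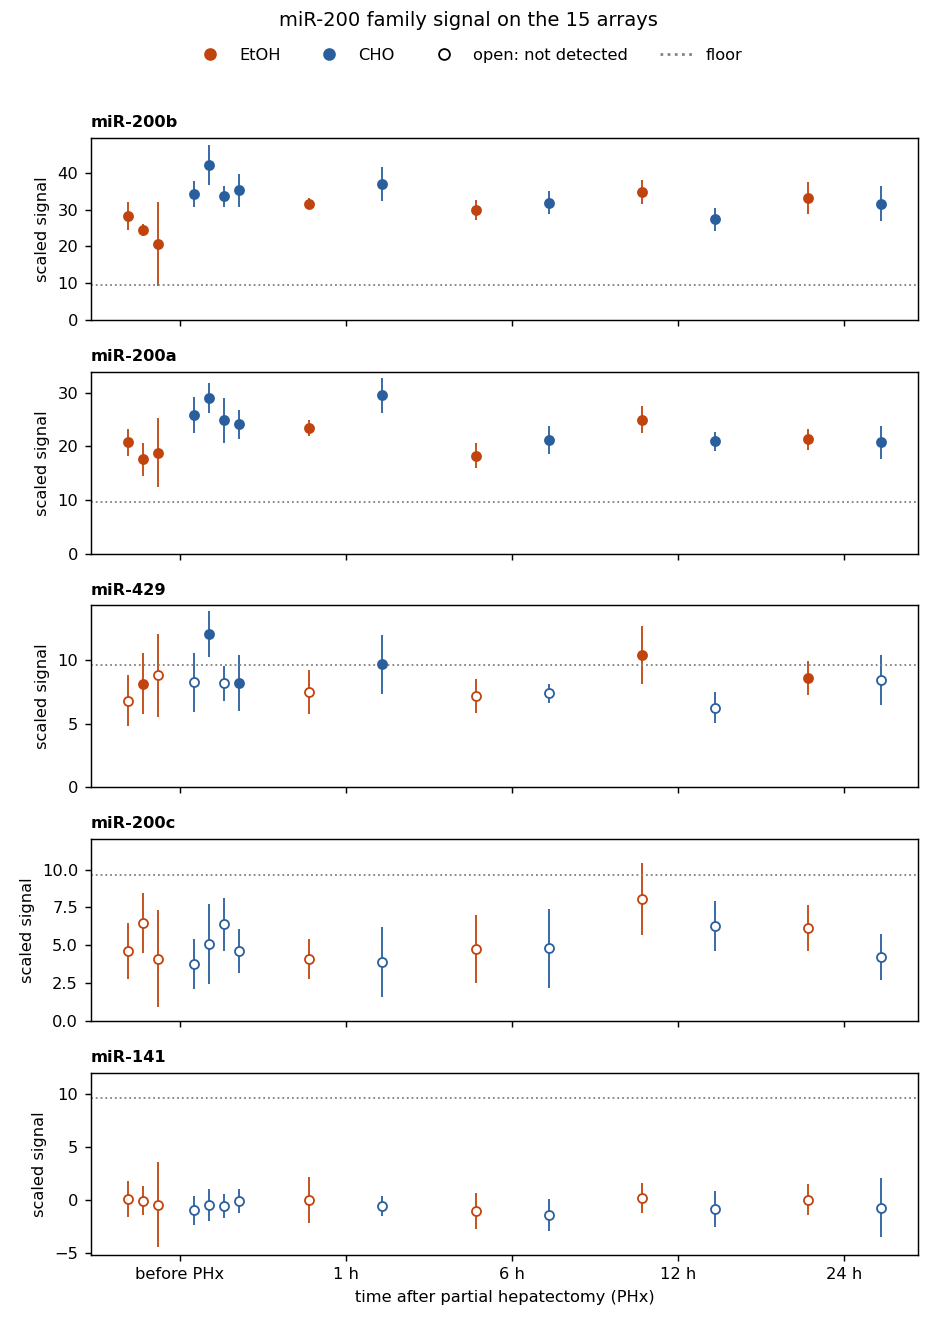
Scaled signal (linear, arbitrary units) of the 5 members on the 15 arrays, by time after PHx, with EtOH left of CHO at each time. Points are arrays, bars are the SD over the spots of the probe, open points were not well above background, and the dotted line is the floor of 9.61. Before PHx the miR-200b and miR-200a points of EtOH lie below those of CHO, and the miR-200c and miR-141 points are open throughout.

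Before PHx, miR-200b and miR-200a were lower in EtOH than in CHO liver, and miR-429 was not shown to differ. Scaled signals of miR-200b were 28.3, 24.5 and 20.7 in the 3 EtOH pools, against 34.3, 42.1, 33.6 and 35.3 in the 4 CHO pools. The highest EtOH pool was below the lowest CHO pool, so the groups did not overlap. miR-200b averaged 24.5 ± 3.82 in EtOH (SD, n = 3) and 36.3 ± 3.90 in CHO (SD, n = 4). The log2 difference, EtOH minus CHO, was -0.57 (SE 0.129, 95% interval -0.86 to -0.29), a ratio of 0.671, with an adjusted p of 0.0152 in limma.

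miR-200a, which shares the primary transcript of miR-200b but has the other seed, moved in parallel. Its scaled signals were 20.8, 17.6 and 18.8 in the EtOH pools, against 25.9, 29.0, 24.8 and 24.2 in the CHO pools, and these groups did not overlap either. miR-200a averaged 19.1 ± 1.59 in EtOH (SD, n = 3) and 26.0 ± 2.12 in CHO (SD, n = 4). The log2 difference was -0.45 (SE 0.110, 95% interval -0.69 to -0.20), a ratio of 0.735, with an adjusted p of 0.0167 in limma.

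These 2 of 3 tested members stand beside a background in which 15.7% of the 134 tested miRNAs passed in either direction before PHx, and 12.7% passed as lower in EtOH. Every EtOH array was below every CHO array for 21.6% of the tested miRNAs. The median log2 difference was -0.45 over the 3 tested members and -0.08 over all 134. The second probes of miR-200b and miR-200a were dimmer and also lower in EtOH: that of miR-200b averaged 16.8 ± 1.35 in EtOH and 22.4 ± 2.97 in CHO, and that of miR-200a 12.0 ± 1.60 in EtOH and 14.8 ± 0.592 in CHO (SD, n = 3 and n = 4). With these probes the log2 differences were -0.41 and -0.31, and neither passed (adjusted p = 0.113 and 0.163, limma).

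The remaining member of the cluster, miR-429, has the seed of miR-200b. Its scaled signals were 6.79, 8.10 and 8.77 in the EtOH pools, against 8.22, 12.0, 8.14 and 8.20 in the CHO pools. By this brighter probe the groups overlapped, and 1 of 3 EtOH and 2 of 4 CHO arrays were well above background. Since 12 of its 15 values were at the floor, its log2 difference of -0.08 (SE 0.0859, adjusted p = 0.577, limma) rests on the second CHO pool, at 12.0, the one pool before PHx above the floor. By the dimmer probe of miR-429, signals before PHx were 1.59 to 4.94 in EtOH and 5.46 to 9.47 in CHO, without overlap. That probe was well above background on 0 of 15 arrays and below the floor on all, so the fit could not test it. The authors' deposited log2 values of miR-429 were 2.87 to 3.05 in EtOH and 3.26 to 3.56 in CHO, also without overlap, and it did not pass with them.

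The chromosome 4 cluster showed no such order before PHx. Scaled signals of miR-200c were 4.61, 6.46 and 4.11 in the EtOH pools, against 3.77, 5.09, 6.39 and 4.60 in the CHO pools. The groups overlapped, at 5.06 ± 1.24 in EtOH (SD, n = 3) and 4.96 ± 1.1 in CHO (SD, n = 4). By the dimmer probe of miR-200c they averaged 5.34 ± 0.596 in EtOH and 3.85 ± 1.36 in CHO (SD, n = 3 and n = 4). Those groups overlapped too, and that probe was well above background on 0 of 15 arrays. With the floor divided by 4 and no detection filter, an alternative chosen after the data were seen, the log2 difference of miR-200c was 0.03 (SE 0.210, adjusted p = 1 over 350 miRNAs, limma). miR-141 averaged -0.120 ± 0.260 in EtOH and -0.480 ± 0.352 in CHO (SD, n = 3 and n = 4), at or below the negative controls, so no difference was detectable. Whether the clusters differed in their response to the diet was not tested, since neither member on chromosome 4 was well above background on any array.

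Array brightness moved with miR-200b and miR-200a. Across the 15 arrays, the Pearson correlation of the log2 signal with the array's unscaled 75th percentile was 0.70 for miR-200b and 0.55 for miR-200a, after scaling. The second EtOH pool before PHx, with a 75th percentile of 410 inside the CHO range of 397 to 516, had a miR-200b signal of 24.5 and a miR-200a signal of 17.6, both below every CHO pool. The part of array brightness in the diet difference was not tested. Without the third EtOH array, the one with variable spots, the log2 difference was -0.46 for miR-200b and -0.44 for miR-200a (adjusted p = 0.0308 and 0.0338, limma). The call on miR-200a was lost without the second EtOH pool (log2 difference -0.39, adjusted p = 0.0634) or without the second CHO pool (-0.39, adjusted p = 0.0532), while miR-200b passed with any 1 array left out.

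The call depended on the processing. Both members were lower in EtOH under 16 of 17 alternative settings. Settings that changed only the detection filter or the floor left the log2 differences at -0.57 and -0.45. Both members were above the floor on all 15 arrays, so these settings could not alter the sign and are no support for it. Without scaling, the log2 difference was -1.11 for miR-200b and -0.98 for miR-200a, and both passed (adjusted p = 0.0032 for each, limma). Neither passed under quantile normalization, a 75th percentile over all probes, the authors' deposited values, no detection filter or slide 2 alone. With a normexp background correction both log2 differences turned positive, at 0.10 for miR-200b and 0.19 for miR-200a, and neither passed (adjusted p = 0.484 and 0.199, limma). That correction adds an offset of 50 to every probe before scaling, which is above the scaled signals of both members on all arrays. The part of the offset in the change of sign was not tested.

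**Figure D2:**
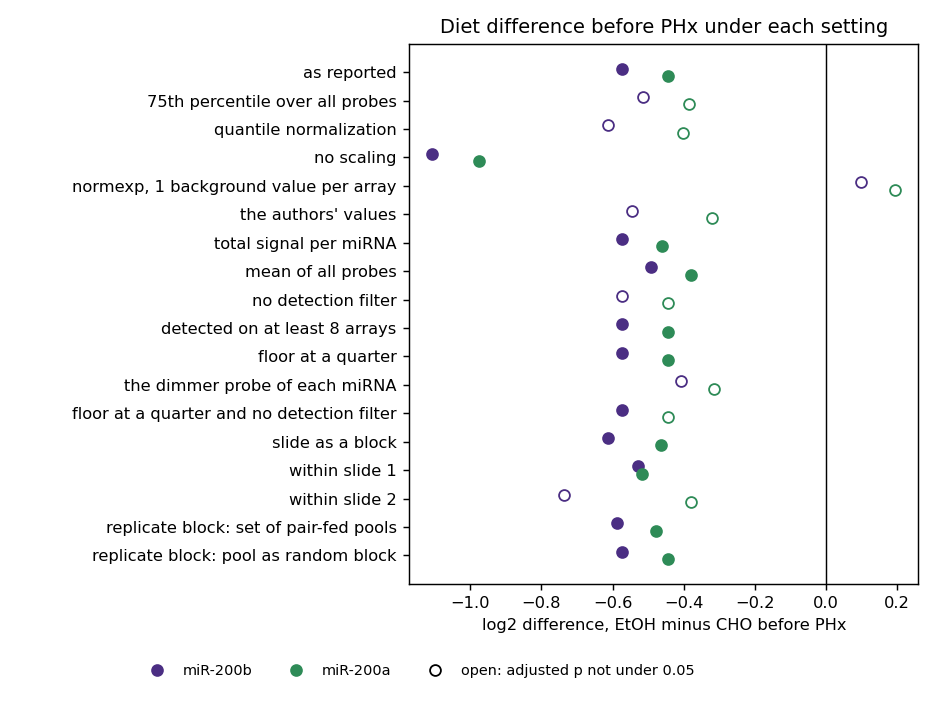
Log2 difference, EtOH minus CHO before PHx, of miR-200b and miR-200a (horizontal axis) under each processing setting (vertical axis). Filled points have an adjusted p under 0.05 in limma. The points lie below 0 under every setting drawn except normexp, where they lie at 0.10 and 0.19.

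Some markers of other cell types were also lower in EtOH before PHx. Over all 134 tested miRNAs, 12.7% passed as lower in EtOH and 15.7% passed in either direction. Of 8 stellate and mesenchymal miRNAs, all tested, 3 fell in EtOH and 0 rose, namely miR-125b-5p (log2 difference -0.39), miR-100 (-0.39) and miR-99a (-0.44). The other 5 did not pass and stood as follows, miR-199a-3p (-0.47), miR-199a-5p (-0.37), miR-143 (-0.24), miR-214 (-0.08) and miR-145 (0.24), and the median of the list was -0.38. Their summed signal was 1633 to 1824 in EtOH and 2092 to 2281 in CHO. Of 5 leukocyte miRNAs, 3 were tested; miR-142-3p fell (log2 difference -0.50, adjusted p = 0.0435, limma), miR-150 stood at -0.38 (adjusted p = 0.0534) and miR-223 at 0.03. Their summed signal was 137 to 153 in EtOH and 154 to 187 in CHO. The 2 endothelial miRNAs summed to 1064 to 1133 in EtOH and 1210 to 1300 in CHO, and neither passed. Of the hepatocyte miRNAs 0 of 4 passed, and of the erythroid miRNAs (miR-451 and miR-144) 0 of 2. Each tested stellate, leukocyte and endothelial marker was above the floor on all 15 arrays, and the part of these cells in the lower miR-200b and miR-200a was not tested.

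Of the other epithelial miRNAs tested, 0 fell, where 12.7% of all 134 tested miRNAs passed as lower in EtOH and 15.7% in either direction. Of 7 listed (miR-203, miR-205, miR-375, miR-183, miR-96, miR-182 and miR-31), 3 were tested; miR-96 rose in EtOH before PHx (log2 difference 0.62, SE 0.167, adjusted p = 0.0244, limma), and miR-203 and miR-31 stood at 0.21 and 0.13 without passing. Of 6 further miRNAs known to target Zeb1 or Zeb2, 3 were tested (miR-192, miR-101a and miR-101b), 0 passed, and their log2 differences were -0.11 to 0.01. Of 8 miRNAs tied to TGF-beta and fibrosis, a pathway that drives epithelial-mesenchymal transition, 7 were tested and 0 passed, from -0.47 for miR-199a-3p to -0.01.

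After PHx, the miR-200b and miR-200a signals of the diets overlapped. At 1, 6, 12 and 24 h, miR-200b was at 31.7, 29.9, 34.8 and 33.1 in EtOH, against 37.0, 31.8, 27.3 and 31.6 in CHO. miR-200a was at 23.4, 18.3, 24.9 and 21.3 in EtOH, against 29.5, 21.2, 20.9 and 20.8 in CHO. For both miRNAs the EtOH pool was below the CHO pool at 1 h and 6 h and above it at 12 h and 24 h, and the ranges of the diets overlapped. This order of signs was found in 9 of the 134 tested miRNAs (6.72%). The difference between these time pairs passed for neither miRNA, where 0.746% of the tested miRNAs passed. At 24 h the log2 difference was 0.065 for miR-200b (SE 0.240) and 0.037 for miR-200a (SE 0.161). By the dimmer probe of miR-200b, EtOH was below CHO at 24 h, at 18.3 against 19.5.

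Averaged over the 4 times, the log2 difference, EtOH minus CHO, was 0.02 for miR-200b (SE 0.120, 95% interval -0.24 to 0.29) and -0.06 for miR-200a (SE 0.102, 95% interval -0.29 to 0.16). It was 0.03 for miR-429 (SE 0.0795). None of the 3 tested members passed (adjusted p = 0.871, 0.705 and 0.837, limma), where 7.46% of the 134 tested miRNAs did. The intervals of miR-200b and miR-200a each reach past a log2 difference of 0.1 in both directions. At single times, each with 1 pool per diet, the members' log2 differences were -0.34 (miR-200a at 1 h) to 0.35 (miR-200b at 12 h), and 0 members passed at any time, where 0.746%, 0%, 3.73% and 0% of the tested miRNAs did at 1, 6, 12 and 24 h. For these lone pools the spread was taken from the pools before PHx.

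The test of whether the diet difference itself changed with PHx did not pass. The diet difference after PHx minus that before was 0.60 on the log2 scale for miR-200b (SE 0.176), 0.38 for miR-200a (SE 0.150) and 0.11 for miR-429. The unadjusted p was 0.00579 for miR-200b and 0.0273 for miR-200a, and the adjusted p was 0.587 for both (limma). None of the 134 tested miRNAs, or 0%, passed after adjustment, and 9 of them, 6.72%, had an unadjusted p under 0.05.

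The pools measured before and after PHx show the courses behind this. In EtOH, miR-200b was higher after PHx than before in 3 of 3 pools, by 0.16, 0.28 and 0.75 on the log2 scale at 1, 6 and 12 h. In CHO it was higher in 1 of 4 pools, with changes of 0.11, -0.40, -0.30 and -0.16 at 1, 6, 12 and 24 h. miR-200a was likewise higher after PHx in 3 of 3 EtOH pools, by 0.17, 0.06 and 0.41, and in 1 of 4 CHO pools, with changes of 0.19, -0.45, -0.25 and -0.22. By the brighter probes, the EtOH pools thus stood higher after PHx than before it. The CHO pools of 6, 12 and 24 h stood lower. By the dimmer probes, the 1 h EtOH pool instead stood lower after PHx for both miRNAs. Its log2 signal was 4.08 after against 4.20 before for miR-200b, and 3.70 against 3.78 for miR-200a. The 6 h and 12 h EtOH pools stood higher by the dimmer probes too, and the CHO pools moved in the same directions by both probes. The 12 h EtOH pool, with the largest of the EtOH differences for both miRNAs, is the one whose array before PHx had variable spots.

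**Figure D3:**
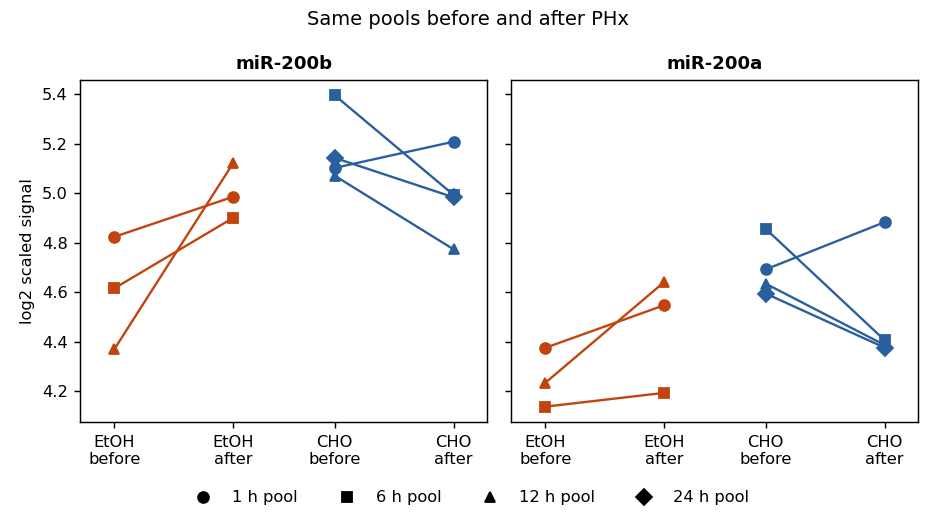
Log2 scaled signal (vertical axis) of miR-200b and miR-200a in the 7 pools measured before and after PHx, with EtOH pools at the left of each panel and CHO pools at the right. Each line joins the arrays of 1 pool by the brighter probe, and the symbol gives its time after PHx. The 3 EtOH lines end higher than they start in both panels, and 1 of the 4 CHO lines does.

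Set against all pools of the same diet before PHx, the changes did not pass. In EtOH at 12 h, miR-200b stood 0.52 above (SE 0.196, adjusted p = 0.401) and miR-200a 0.39 above (SE 0.132, adjusted p = 0.303) in limma. In CHO, the log2 changes at 6, 12 and 24 h were -0.18, -0.40 and -0.19 for miR-200b and -0.29, -0.31 and -0.32 for miR-200a. No tested member passed at any time in either diet, where 0%, 1.49%, 5.97% and 7.46% of the tested miRNAs did at 1, 6, 12 and 24 h in EtOH and 0.746%, 0.746%, 6.72% and 5.22% in CHO.

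Averaged over the diets, no member passed the test of a change with time after PHx. The log2 changes of the 3 tested members lay between -0.17 (miR-200a at 6 h, adjusted p = 0.524) and 0.24 (miR-200a at 1 h, adjusted p = 0.925) in limma. Over all tested miRNAs, 0%, 4.48%, 5.97% and 13.4% passed at 1, 6, 12 and 24 h. Among the context lists, miRNAs tied to TGF-beta and fibrosis had 1 of 7 higher at 6 h, 1 at 12 h and 2 at 24 h, and of the 3 Zeb-targeting miRNAs tested 0 passed at any time. Of the 3 other epithelial miRNAs, 1 was lower at 24 h, and of the 3 leukocyte miRNAs, 1 was higher at each of 6, 12 and 24 h. The hepatocyte, stellate, endothelial and erythroid lists had 0 calls at any time.

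The dimmer members gave no course that could be tested firmly after PHx. At 1, 6, 12 and 24 h, miR-429 was at 7.48, 7.14, 10.4 and 8.54 in EtOH, against 9.64, 7.36, 6.25 and 8.39 in CHO. It was well above background in EtOH at 12 and 24 h and in CHO at 1 h. With 1 pool per diet and all but 2 of these 8 values below the floor of 9.61, no fold is given for single times. miR-200c was at 4.09, 4.78, 8.03 and 6.13 in EtOH, against 3.89, 4.79, 6.31 and 4.21 in CHO. Its highest signal of the series, 8.03, was in the 12 h EtOH pool. With the lower floor and no filter, its change at 12 h averaged over the diets was 0.53 on the log2 scale (SE 0.221, unadjusted p = 0.0413, adjusted p = 0.321 over 350 miRNAs, limma).

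Across the 15 arrays, miR-200b and miR-200a of the chromosome 5 cluster varied together, and miR-429 followed them less closely. The scaled signals of miR-200b and miR-200a had a Pearson r of 0.86 (Spearman rho 0.92), those of miR-200b and miR-429 an r of 0.60 (rho 0.59), and those of miR-200a and miR-429 an r of 0.65 (rho 0.57). Between the clusters, the r of miR-200c was -0.01 with miR-200b (rho -0.09), -0.11 with miR-200a (rho -0.17) and 0.14 with miR-429 (rho -0.08). Before scaling, these r values were 0.50, 0.44 and 0.55, and those within the chromosome 5 cluster were 0.88 to 0.96. Within the chromosome 4 cluster, miR-200c and miR-141 had an r of 0.36 (rho 0.27). By seed instead of cluster, the pair miR-200b and miR-200c and the pair miR-200a and miR-141 (r 0.06, rho 0.01) had a lower r than any pair within the chromosome 5 cluster, after scaling. These arrays share scaling and slide, and 7 pools have 2 arrays each. miR-200c and miR-141 were near the background, and miR-429 was below the floor on 12 of 15 arrays, so the values describe these arrays.

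**Figure D4:**
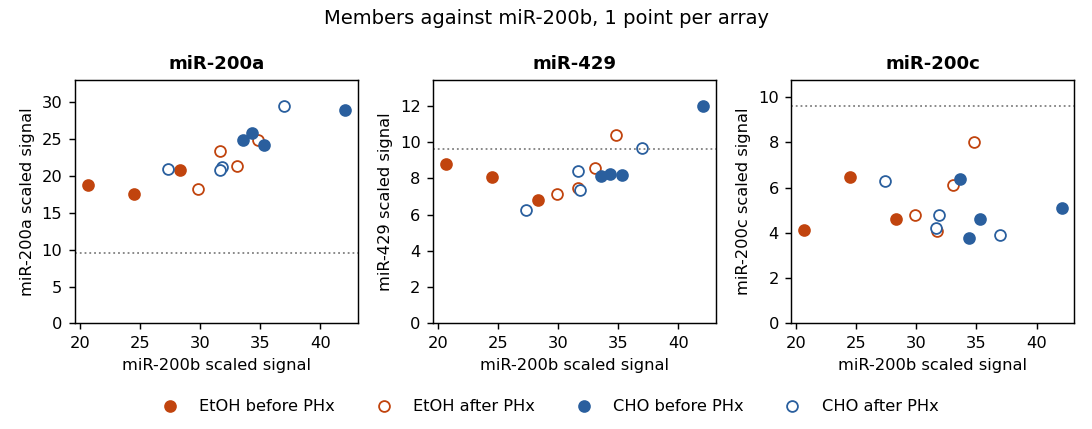
Scaled signal (linear, arbitrary units) of miR-200a, miR-429 and miR-200c (vertical axes) against that of miR-200b (horizontal axis), with 1 point for each of the 15 arrays. Filled points are arrays before PHx and open points arrays after it, and the dotted line is the floor of 9.61. The r with miR-200b is 0.86 for miR-200a and -0.01 for miR-200c after scaling, and 0.96 and 0.50 before it.

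Among the 133 other tested miRNAs, the one most like miR-200b over the 15 arrays was miR-200a (Pearson r of floored log2 signal 0.83). Next came miR-199a-3p (0.79), miR-322, miR-140, miR-26b and miR-30b-5p. For miR-200a the most alike was miR-143 (0.89), a miRNA of smooth muscle and other mesenchymal cells, followed by miR-200b. After these came miR-10a-5p (0.75), miR-142-3p, miR-322 and miR-126*. The cluster member miR-429 ranked 23 of 133 for miR-200b (0.52) and 18 of 133 for miR-200a (0.50). For miR-429 the closest was miR-29c* (0.88, Spearman rho 0.56), followed by miR-7a* and miR-331, with miR-200b next. The median r over all tested miRNAs was 0.07 with miR-200b, -0.00257 with miR-200a and -0.03 with miR-429.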

How the data were processed

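Total RNA of 8 pools, 7 of them sampled before and after PHx, was measured on 15 1-colour Agilent miRNA arrays. The deposited scanner files hold linear spot intensity values with background subtracted by Agilent Feature Extraction (10.5.1.1 per the file headers; the submitters' processing notes name 10.7.3.1). A further table deposited by the authors gives log2 values per miRNA, with column medians of 0.106 to 1.097. How it was scaled and centred stays unknown, and it was used only as an alternative.

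Spots flagged as outliers were left out (2.38%). A probe was detected where a share of at least 0.5 of its spots was well above background. The mean signal per probe was scaled to the 75th percentile over the 185 of 938 probes detected on all arrays, floored at 9.61 and put on the log2 scale. The brightest probe stood for a miRNA, and miRNAs detected on at least 3 arrays were tested with limma 3.58.1 in R 4.3.3. The fit held all 15 arrays, with diet before PHx, diet after PHx and time as terms (8 residual degrees of freedom). A fit with 1 term per group (5 residual degrees of freedom) gave single times. P-values were adjusted by Benjamini-Hochberg over 134 miRNAs, with calls at an adjusted p under 0.05. The script was tested on simulated data. P-values measure the spread between arrays of pools of 4 animals, and the number of arrays limits the precision. In the first fit, this spread also holds departures of the single times after PHx from a shared diet difference. Arrays of the same pool entered both fits as independent.

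The members and lists were chosen with earlier results of these data known. Named are the 5 members, the 5 other miRNAs most correlated with each tested member, and tested members of the context lists; the comparison of 12 and 24 h with 1 and 6 h was chosen after the values were seen. Pools are paired by the labels' animal identifiers: residuals of arrays of the same pool correlated at -0.100 to 0.242. EtOH and CHO pools of 1 time set correlated at -0.132 to 0.167 before PHx. Alternatives covered scaling, background, probe choice, floor, filter, slide, blocks and leaving out each array. Normexp used the median spot signal.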

Additional observations from a re-analysis of the deposited data

Results flagged for a closer look

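One array stood apart from its group. miR-429 in CHO before PHx had a scaled signal of 12.0 in the second pool, against 8.14 to 8.22 in the other 3, and the gap took a share of 0.978 of the group's range, which is above Dixon's 95% critical value for 4 samples. Chance alone flags about 1 group in 20.

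The sign of the diet difference of miR-200b and miR-200a differed between time points. By the brighter probes, EtOH was below CHO at 1 and 6 h and above it at 12 and 24 h, a pattern shared by 9 of 134 tested miRNAs (6.72%). At 24 h the log2 difference was only 0.065 for miR-200b (SE 0.240) and 0.037 for miR-200a (SE 0.161). By the dimmer probe of miR-200b, EtOH was below CHO at 24 h, at 18.3 against 19.5. The diet difference at 12 and 24 h minus that at 1 and 6 h was 0.42 on the log2 scale for miR-200a (SE 0.161, unadjusted p = 0.0382, adjusted p = 0.341, limma) and 0.36 for miR-200b (adjusted p = 0.717), and it did not pass for either. The 12 and 24 h arrays were on slide 2 and the 1 and 6 h arrays on slide 1, so time and slide cannot be told apart.

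miR-200c, which did not meet the detection filter, lay above the negative-control spots on every array, by 2.91 scaled units at the least, although its probe was well above background on 0 of 15.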

How the results depend on the processing

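Of the 3 tested members, 2 passed for diet before PHx. The count was 0 with the 75th percentile over all probes, quantile normalization, normexp, the authors' values, no detection filter, the dimmer probe (added after seeing the data) or slide 2 alone, 1 with the floor divided by 4 and no filter (also added), and 1 to 2 when 1 array was left out. It was 1 without the second EtOH pool or the second CHO pool before PHx, where miR-200a had adjusted p-values of 0.0634 and 0.0532. Blocking on the pair-fed set, miR-200b stood at -0.59 (adjusted p = 0.0317) and miR-200a at -0.48 (adjusted p = 0.0412), and with the pool as a random block miR-200b stood at -0.57 (adjusted p = 0.0150); no call changed under either pairing. Without scaling, both members passed for diet before PHx, at -1.11 for miR-200b and -0.98 for miR-200a (adjusted p = 0.0032 for both). For change after PHx within each diet, 1 call arose with the authors' values, miR-429 in CHO at 12 h, where the count was otherwise 0.

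Normexp turned several signs. Its offset of 50 exceeds the members' signals, and the part of the offset in these signs was not tested. Diet before PHx became 0.10 for miR-200b, 0.19 for miR-200a and 0.36 for miR-429, and the diet difference after minus before PHx became -0.0820, -0.20 and -0.32. The difference of 12 and 24 h against 1 and 6 h became -0.10, -0.14 and -0.23. The change of miR-200a at 1 h became -0.0409. In EtOH at 12 h, miR-200b and miR-200a became -0.10 and -0.17, and in CHO 0.0123 and 0.0136 at 6 h and 0.0868 and 0.10 at 24 h.

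Diet after PHx, near 0, changed sign most often, and the cause was not tested. For miR-200b it was -0.0421 with the mean of all probes, -0.11 with the dimmer probe, -0.16 within slide 1 and -0.0837 to 0.11 with 1 array left out, lowest without the EtOH or the CHO array at 12 h. For miR-200a it was 0.19 with all probes in the percentile, 0.17 with quantile normalization, 0.23 with the authors' values, 0.0153 with the dimmer probe, 0.15 within slide 2 and -0.17 to 0.0257 with 1 array left out, highest without the EtOH or the CHO array at 1 h. For miR-429 it was -0.0023 within slide 1 and -0.0016 to 0.0362 with 1 array left out, lowest without either 12 h array. Dim signal limits miR-429 and kept miR-200c and miR-141 below the detection filter.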
